A study of Zea mays with 16 samples.

Results

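The transcripts described here are 40 of the 42034 maize probes of an Agilent array, selected on their detection in 2.0 mm anthers. Each was well above background, by the mark of the scanner software, in all 4 *Mu* active samples and in 0 of the 4 *Mu killer* samples of that stage. The rule took 0.0952% of the probes, and the same rule with the lines exchanged took 4 probes, or 0.00952%. The 2.0 mm signals chose these probes, so the difference between the lines at 2.0 mm is given as a description, without a test. The 1.0 mm anthers were not used by the rule.

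The groups were 2.0 mm anthers of plants that inherited *Mu killer*, 2.0 mm anthers of *Mu* active plants, and 1.0 mm anthers of both lines, with 4 samples in each group and 16 in all. No sample was treated. By the methods, *Mu killer* plants grew from bronze kernels and were genotyped for the locus, while *Mu* active plants grew from spotted kernels, and both lines share a high copy mutator background with the *bz2-mu2* reporter. Each of the 8 arrays held 1 sample of each line in different colors, and the 4 arrays of a stage lay on 1 slide, so a stage and its slide cannot be told apart. In the design text of the series the silenced line is named inactive, and the scan recorded in the scanner output is earlier than the growing season given in the methods. Whether these samples came from the genotyped plants of the methods is therefore not settled, and *Mu killer* is used here as the name in the labels.

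The assignment of lines to colors is not settled. On every array the labels name 1 line for both colors. Here each Cy3 sample kept the line of its title and the Cy5 sample of the array was taken as the other line, which puts *Mu killer* in the Cy3 color for replicates 1 and 2 and in the Cy5 color for replicates 3 and 4. A key and a caption in the paper can be read either way. Under this assignment, 33632, 34058, 34615 and 36488 probes were above the background mark in replicates 1 to 4 of *Mu killer* at 2.0 mm. In replicates 1 to 4 of *Mu* active they were 36077, 35618, 35683 and 36474. The ranges overlap through *Mu killer* replicate 4 alone, and *Mu killer* replicates 1 to 3 had fewer detected probes than any *Mu* active sample. The part of this in the unequal numbers of probes that the rule took in its 2 directions was not tested. If the colors are exchanged, the same probes were detected in *Mu killer* alone, and every difference between the lines below turns with its size unchanged. The differences between the stages keep their direction and change only the name of the line.

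*MuDR* is the autonomous element of the maize mutator system and encodes the transposase that moves the *Mu* elements. *Mu killer* is a rearranged copy of *MuDR* that triggers the heritable silencing of *MuDR*. A hairpin transcript was proposed earlier as the agent. The paper proposes that short antisense transcripts of *Mu killer* are required, and holds a contribution of long hairpins possible. A maize anther of the 1.0 mm stage is pre-meiotic, and its cells still divide by mitosis. At 2.0 mm the central cells are in meiosis and the tapetum around them is secretory.

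The identity of the 40 transcripts is limited by the array design. All 40 had different identifiers, of which 18 were tentative consensus sequences assembled from expressed sequence tags (45.0%, against 64.6% of all probes), 21 were single expressed sequence tags and 1 was a genomic assembly. None of the 40 carried a description in the array output, and 0 matched the RefSeq gene table of 49888 maize genes. The transcripts are therefore given by identifier, with no gene name, function or position in the genome. The 33 names of the lists of anther genes and of silencing genes met the same limit, with 1 of 19 and 0 of 14 found. The 3 probes of the gene found, *AM1* (*ameiotic1*, needed for entry into meiosis), were well above background in 16, 16 and 12 of the 16 samples. The 4 *MuDR* probes were well above background in all 16 samples. Their log2 ratios (*Mu killer* over *Mu* active) lay between -0.96 and 0.30 at 2.0 mm and between -0.58 and 0.01 at 1.0 mm, and the lowest adjusted p from limma was 0.385 and 0.852 at these stages, so they did not settle the colors.

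Each sample had 32697 to 37898 of the 42034 probes above the background mark, and no spot was saturated. The 1 mm array of replicate 1 stood apart. Its log2 ratios correlated with those of the other 7 arrays at between -0.205 and 0.085 across probes, below 0 for 6 of the 7, while all other pairs lay between -0.0004 and 0.52. The 2.0 mm array of replicate 3, which the rule used, correlated with the other arrays of its stage at -0.0004, 0.03 and 0.06. The other pairs of that stage lay between 0.179 and 0.291. Probes are not independent replicates. The comparisons between the lines at 1.0 mm and between the stages are also given without the 1 mm array of replicate 1, a choice made after the data were seen.

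The 2.0 mm signals divided the 40 probes into 3 that were bright in at least some *Mu* active samples and 37 that were dim in all of them, with no *Mu* active signal above 103.4. The mark of the scanner software acts as a cutoff on the background-subtracted signal of each sample, which lay between 3.06 and 3.91 units at 2.0 mm. Only TC291145 and AW400172 were at 5 or more times the cutoff in all 4 *Mu* active samples. For 38 of the 40 probes the dimmest *Mu* active sample was less than 2 times above the cutoff, with a median of 1.24 times over the 40. For 31 of them the brightest *Mu killer* sample reached more than 0.5 of it, with a median of 0.809. Detection in every sample of one line and in none of the other was thus a step of this size for most of the probes.

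**Figure D1:**
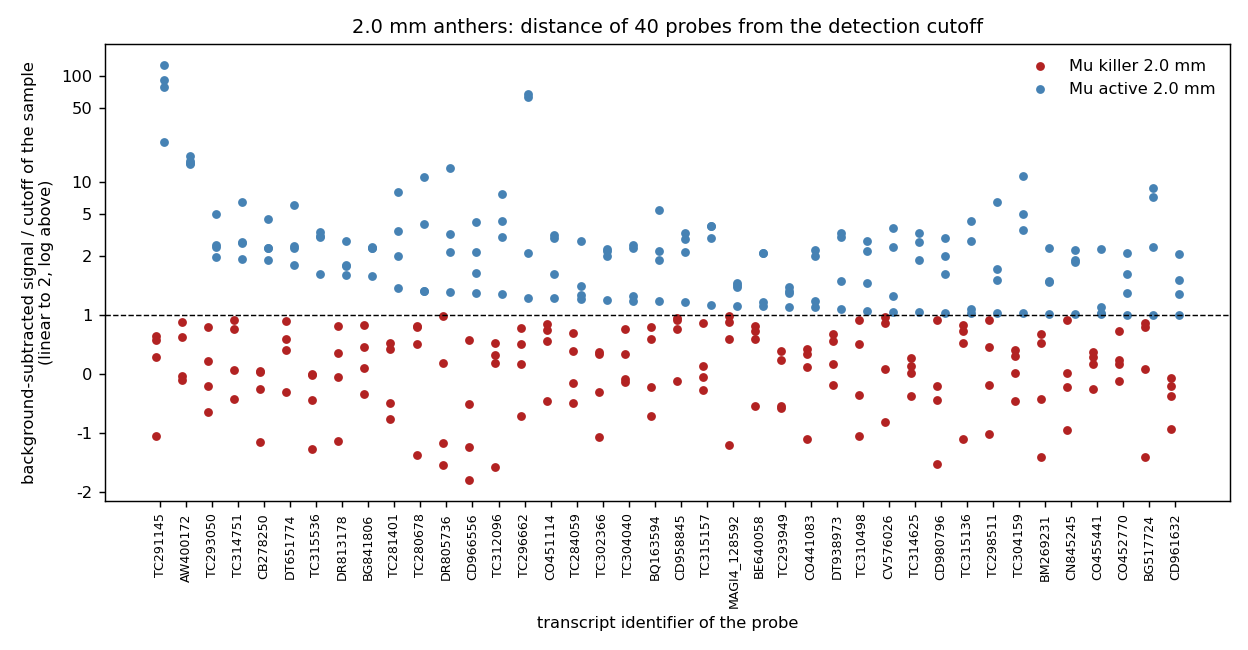
Background-subtracted signal of the 40 probes in each 2.0 mm sample, divided by the detection cutoff of that sample (vertical axis, linear up to 2 and logarithmic above). Each point is 1 sample, with *Mu killer* in red to the left of *Mu* active in blue, the dashed line is the cutoff, and probes are ordered by their dimmest *Mu* active sample. Only TC291145 and AW400172 are 5 or more times above the cutoff in all 4 *Mu* active samples.

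Processed signals, which are background-subtracted and scaled between the dyes, showed the same division. For a spot that lacks the mark of a positive and significant signal the software writes a stand-in value. This was so for all 101611 values below the cutoff and for 147 values above it, over all probes and samples. All 160 *Mu killer* values of the 40 probes at 2.0 mm were such values, between 6.92 and 21.3, and they are no measured levels. Of the 160 *Mu* active values, 1 was a stand-in, in replicate 2 of CD961632. The median of the probe means was 12.3 for *Mu killer* and 21.1 for *Mu* active samples, while all probes had 161.4 and 165.4. All 4 *Mu killer* values were below all 4 *Mu* active values in 7 of the 40 probes: TC291145, AW400172, TC315536, DT651774, CB278250, TC293050 and TC314751. The rule used these same samples and the share over all probes is not given, so this count is a description only.

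TC291145 (probe A_92_P003365) had the brightest signals of the 40 at 2.0 mm. Its processed signals in replicates 1 to 4 were 15.8, 17.6, 12.6 and 10.1 in *Mu killer*, all stand-in values, and 726.8, 272.0, 868.5 and 875.6 in *Mu* active. The *Mu* active mean was 685.7 ± 284.2 (SD, n = 4), and replicate 2 was the lowest of the 4. At 1.0 mm its signals were 196.6, 11.2, 5.19 and 28.1 in *Mu killer*, and 12.6, 451.6, 499.8 and 592.1 in *Mu* active. Replicates 2 to 4 thus kept the order of the 2.0 mm samples, and replicate 1 had the opposite order, with a detected signal in the *Mu killer* sample and none in the *Mu* active sample. The 2 lines overlapped at 1.0 mm through this array alone.

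AW400172 (A_92_P033273) behaved the same way at a lower level. At 2.0 mm its signals in replicates 1 to 4 were 19.0, 12.4, 13.7 and 11.0 in *Mu killer* and 144.4, 131.0, 202.1 and 131.7 in *Mu* active, with a *Mu* active mean of 152.3 ± 33.8 (SD, n = 4). At 1.0 mm they were 154.7, 12.9, 10.9 and 6.64 in *Mu killer* and 13.6, 252.8, 174.2 and 276.6 in *Mu* active. Again the order on the 1 mm array of replicate 1 was opposite to that on the other 3 arrays of the stage.

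TC296662 (A_92_P023985) varied strongly between the replicates of a line. At 2.0 mm its signals were 16.6, 14.0, 10.3 and 7.09 in *Mu killer* and 489.8, 628.6, 18.9 and 9.56 in *Mu* active, so only *Mu* active replicates 1 and 2 were bright. At 1.0 mm they were 425.2, 583.6, 26.4 and 9.93 in *Mu killer* and 360.3, 494.0, 435.9 and 7.65 in *Mu* active. At this stage 2 *Mu killer* samples and 3 *Mu* active samples were bright. All 4 *Mu killer* samples were well above background there, against 3 of 4 in *Mu* active, where replicate 4 was not.

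**Figure D2:**
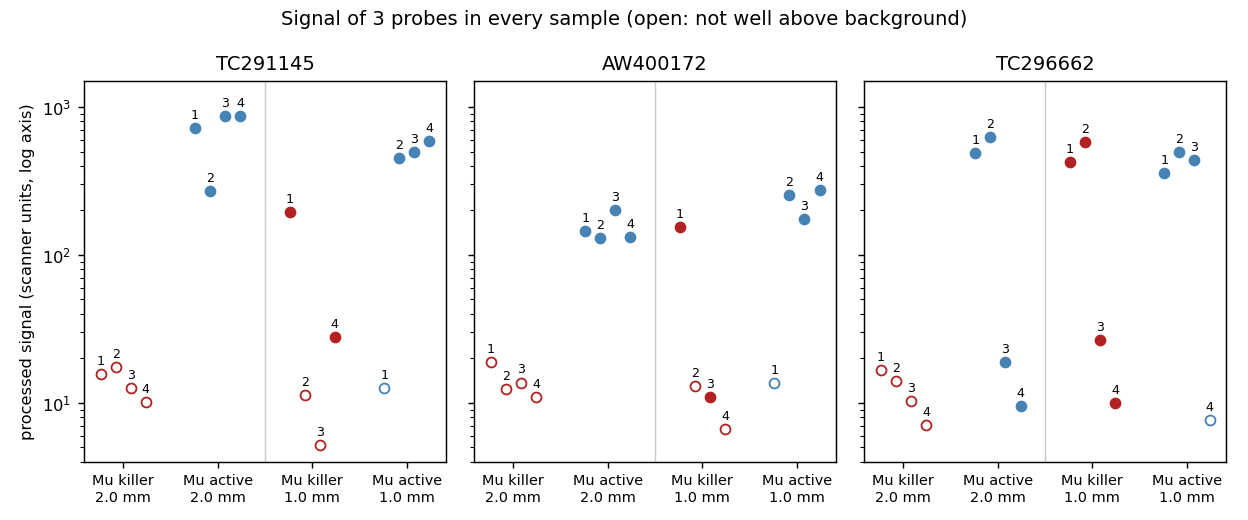
Processed signal in scanner units (logarithmic axis) of TC291145, AW400172 and TC296662 in all 16 samples, by line and stage; the number beside a point is its replicate. Filled points are well above background and open points, which are stand-in values, are not. TC291145 is at 272.0 or more in the 4 *Mu* active samples at 2.0 mm, and at 1.0 mm replicate 1 has the opposite order of the lines to replicates 2 to 4.

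The order of the lines on the 1 mm array of replicate 1 was compared with that of other probes. In all, 124 probes were lower in *Mu killer* on each of the other 3 arrays of that stage and at least 2-fold lower on 2 or more of them, and TC291145 and AW400172 were the 2 members among them. On the array of replicate 1, 88 of the 124 were higher in *Mu killer*, 35 of them at least 2-fold, and 17 were at least 2-fold lower. The 2 probes of TC313692, which is not among the 40 transcripts, were lower in *Mu killer* on this array too, with log2 ratios of -5.78 and -4.83. What sets this array apart was not tested.

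The size of the difference at 2.0 mm is known only roughly, since no *Mu killer* sample was above the cutoff. The fitted log2 ratio (*Mu killer* over *Mu* active) was -1.48 for TC291145 (SE 0.623), -0.83 for TC296662 (SE 0.513) and -0.49 for AW400172 (SE 0.401). On the 2.0 mm arrays of replicates 1 to 4 the ratio of TC296662 was -1.43, -1.82, -0.02 and -0.07, so it rested on 2 arrays. TC291145 had -1.93, -0.845, -0.71 and -2.41, and AW400172 had -0.46, -0.69, -0.15 and -0.67, below 0 on all 4. At the offset of 50 units, each *Mu killer* level was raised to that of the dimmest probe well above background in the same sample. This moved 3 of the 160 values and none of the ratios of these 3 probes. The fitted ratios are therefore means with their error and set no lower limit to the difference. The offset of 50 units added before the logarithm draws them toward 0. In probes below the cutoff, the mean signal still exceeded the local background by a median of 14.0 to 39.4 units, depending on the sample, which draws them further. With an offset of 0 and *Mu killer* levels raised in the same way, the log2 differences of the mean levels were -2.79 for TC291145, -1.65 for TC296662 and -1.26 for AW400172. The next 7 probes by size were TC304159, TC280678, DR805736, TC298511, TC281401, TC315536 and BQ163594, with fitted log2 ratios between -0.28 and -0.15. Of these, TC280678 was below 0 on 2 of the 4 arrays, TC304159, TC298511 and BQ163594 on 3, and the others on 4. With *Mu killer* levels raised in this way, the mean level was at least 1.5-fold lower in *Mu killer* for 2 of the 40 probes. With an offset of 0 this held for 9. The median log2 ratio of the 40 was -0.09, against -0.002 for all probes. On the 2.0 mm arrays of replicates 1 to 4 this median was -0.085, -0.096, -0.01 and -0.197, so it was close to 0 on that of replicate 3. With each array centered on its median in place of loess, the median ratio of the 40 was 0.06, so its direction depended on the scaling of dim spots. MAGI4_128592 alone had a fitted ratio above 0, at 0.004.

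In 6 of these 7 probes *Mu* active replicate 4 was the brightest sample, at no more than 103.4, and the exception was TC315536. TC304159 (A_92_P007559) had signals of 17.5, 11.0, 21.3 and 10.6 in *Mu killer* and 51.7, 28.9, 19.2 and 99.7 in *Mu* active. TC280678 (A_92_P031735) had 19.2, 13.8, 13.9 and 11.5 in *Mu killer* and 45.1, 14.9, 16.1 and 103.4 in *Mu* active. In both, replicate 4 of *Mu* active was the brightest sample, and the lines overlapped. DR805736 (A_92_P025585) had 13.9, 12.3, 10.01 and 7.79 in *Mu killer* and 19.6, 13.6, 27.2 and 89.9 in *Mu* active. TC298511 (A_92_P000400) had 10.1, 11.4, 10.6 and 8.23 in *Mu killer* and 12.1, 14.8, 9.30 and 47.9 in *Mu* active. Each of these was 3 or more times brighter in *Mu* active replicate 4 than in the next sample. TC281401 (A_92_P029814) had 15.7, 11.6, 12.9 and 9.90 in *Mu killer* and 15.6, 29.4, 21.3 and 67.6 in *Mu* active. BQ163594 (A_92_P029482) had 11.2, 8.66, 10.1 and 8.63 in *Mu killer* and 10.5, 14.9, 17.2 and 42.0 in *Mu* active. Both had their highest value in replicate 4 of *Mu* active as well. TC315536 (A_92_P028432) differed from the others of this group in its even *Mu* active signals, with 18.2, 14.9, 13.1 and 10.5 in *Mu killer* and 20.5, 35.8, 33.4 and 28.8 in *Mu* active. Over the 40 probes, *Mu* active replicate 4 was the brightest of the 4 samples for 19, replicate 1 for 11, replicate 2 for 6 and replicate 3 for 4. Among all probes these shares were 29.6%, 20.9%, 13.6% and 35.8%.

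The members nearest the cutoff differed little from probes just outside the rule. In *Mu* active, the dimmest sample of CD961632 (A_92_P038991) was at 1.00 times the cutoff and that of BG517724 (A_92_P033515) at 1.01 times. Just outside, the dimmest sample of DR964889 was at 0.993 times and that of TC296268 at 0.977 times. In *Mu killer*, the brightest sample of MAGI4_128592 (A_92_P000894) was at 0.996 times the cutoff and that of DR805736 at 0.991 times, while DN228646 and TC284141 lay just outside at 1.00 and 1.01 times. Another 179 probes were detected in 4 *Mu* active samples and 1 *Mu killer* sample, and 129 in 3 and 0. BG517724 had signals of 19.0, 11.8, 14.1 and 10.9 in *Mu killer* and 89.5, 9.46, 28.3 and 66.0 in *Mu* active. CD961632 had 12.4, 10.5, 10.8 and 8.27 in *Mu killer* and 17.5, 8.29, 12.7 and 12.9 in *Mu* active. MAGI4_128592 had 11.0, 14.2, 11.0 and 7.91 in *Mu killer* and 12.4, 15.9, 14.1 and 9.30 in *Mu* active. In these 3 the lines overlapped.

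At 1.0 mm none of the 40 probes was restricted to one line. All 40 were well above background in at least 1 *Mu killer* sample, 29 of them in 3 or 4, and 37 were so in 3 or 4 *Mu* active samples. In *Mu killer* 16 were so in 3 samples and 13 in 4, and in *Mu* active 23 and 14. Among all probes, 5.77% were so in 0 *Mu killer* samples, 7.99% in 3 and 75.3% in 4. In *Mu* active these shares were 5.88%, 9.49% and 75.3%. In replicates 2 to 4 alone, 35 of the 40 were well above background in 2 or 3 *Mu killer* samples and all 40 in 2 or 3 *Mu* active samples. All 6 of these samples detected 20 of the 40, against 79.1% of all probes. The rule applied to the 1.0 mm samples took 1 probe of the array (0.00238%), which was not among the 40. In replicates 2 to 4 alone it took 0.0761% of the probes and again 0 of the 40. Detection in all 8 samples of the stage was found for 6 of the 40, DR805736, DT651774, BG517724, TC310498, TC304040 and TC284059, against 72.4% of all probes. CD980796 was detected in 1 *Mu killer* sample and the other 39 in 2 or more. Of the 40, 18 were detected in more *Mu* active than *Mu killer* samples, 8 in fewer and 14 in as many, against 7.95%, 6.97% and 85.1% of all probes. Probes detected in all 8 samples count as ties, so dim probes such as the 40 can split more often in either direction. The cutoffs of the 1.0 mm samples lay between 3.22 and 6.54 units, with the highest in *Mu* active replicate 1. In replicates 1 to 4, 25, 22, 37 and 37 of the 40 were detected in *Mu killer* and 18, 36, 39 and 38 in *Mu* active. The part of the cutoffs in these counts was not tested. Single arrays decided this split. Without the 1 mm array of replicate 1 the numbers of more and fewer were 15 and 1, and without replicate 2 they were 6 and 10.

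**Figure D3:**
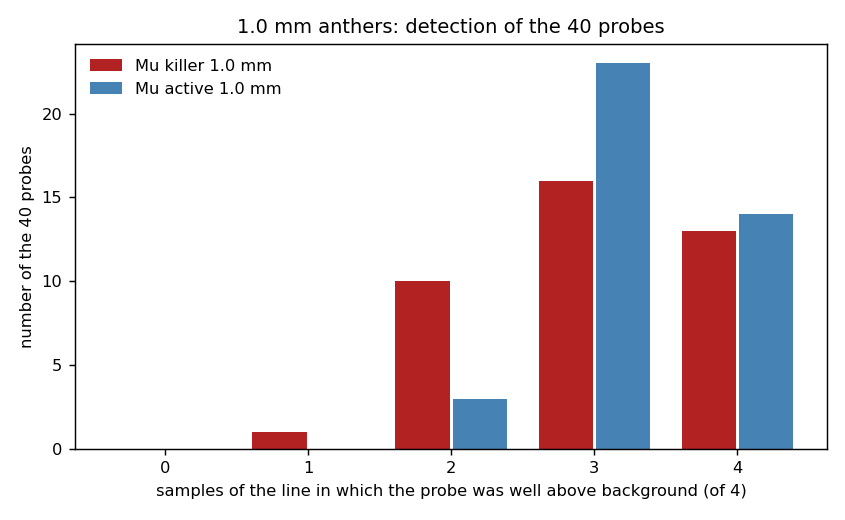
Number of the 40 probes (vertical axis) by the number of 1.0 mm samples of a line in which they were well above background (horizontal axis, 0 to 4), with *Mu killer* in red to the left of *Mu* active in blue. No probe of the 40 is at 0 in either line, and 29 are at 3 or 4 samples in *Mu killer*. Among all probes, 7.99% are at 3 and 75.3% at 4 in *Mu killer*.

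The comparison of the lines at 1.0 mm asked whether the difference seen at 2.0 mm was present before meiosis. The 40 probes had a median log2 ratio (*Mu killer* over *Mu* active) of -0.06, against -0.0003 for all probes, and 36 of the 40 were below 0, or 90.0%, against 50.1% of all probes. On the single arrays of replicates 1 to 4, 18, 22, 30 and 29 of the 40 were below 0, and 20 of the 40 were below 0 on 2 arrays or fewer. Without the array of replicate 1 the median was -0.08 and 35 were below 0, against 49.1% of all probes. Without that of replicate 3, 25 were below 0. Centering each array on its median turned the median of the 40 to 0.03. In the limma fit across all probes, 0 of the 40 had a Benjamini-Hochberg adjusted p under 0.05, and the lowest adjusted p was 0.852. Among all probes 2 passed, or 0.00476%. At an unadjusted p under 0.05, 2 of the 40 were lower in *Mu killer*, BG517724 and TC314625, against a background of 2.95%. Of the 320 signals of the 40 probes at 1.0 mm, 68 were stand-in values, which are no measured levels. The counts of overlap that follow include them. All 4 *Mu killer* signals were below all 4 *Mu* active signals in 0 of the 40, against 0.795% of all probes. In replicates 2 to 4 alone the lines did not overlap in this direction for 10 of the 40, TC291145, AW400172, CD966556, CO452770, DR805736, TC280678, TC302366, TC312096, TC314625 and TC314751, against 7.39% of all probes. The ratio was lower in *Mu killer* on all 4 arrays for 3 of the 40, TC315536, TC312096 and TC315157, against 6.73% of all probes. On the arrays of replicates 2 to 4 it was lower on all 3 for 11 of the 40, against 19.9% of all probes. In the fit without replicate 1, 0 of the 40 passed the adjusted p of limma, with a lowest value of 0.617. An unadjusted p under 0.05 was found there for 4, AW400172, TC291145, TC293050 and TC302366. The share over all probes in that fit is not given, so this count has no background to be read against. TC315536 and TC312096 had ratios below 0 on all 8 arrays.

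TC291145 had the lowest log2 ratio at 1.0 mm, -1.01 (SE 0.623, adjusted p = 0.852 from limma). On the arrays of replicates 1 to 4 it was 1.45, -2.10, -2.48 and -0.90, and without replicate 1 the fitted ratio was -1.84 with an adjusted p of 0.68 from limma. For AW400172 the fitted ratio was -0.59 (SE 0.401, adjusted p = 0.852 from limma), from 1.09, -1.37, -1.53 and -0.54 on the 4 arrays. Without replicate 1 it was -1.19, with an adjusted p of 0.617 from limma. The difference of both probes at 1.0 mm was thus below 0 on 3 of 4 arrays and did not pass the adjustment over all probes. With all arrays the unadjusted p from limma was 0.152 for TC291145 and 0.188 for AW400172. In the fit without replicate 1 it was under 0.05 for both, but that array was left out after the data were seen. TC296662 had a fitted ratio of -0.47 (SE 0.513, adjusted p = 0.878 from limma). Its ratios on the 4 arrays were 0.18, 0.23, -2.29 and 0.01, so the fitted value rested on replicate 3, without which it was 0.28.

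The largest ratios at 1.0 mm belonged to DT651774, with 0.14 (SE 0.168), MAGI4_128592, with 0.05 (SE 0.0565), and TC310498, with 0.04 (SE 0.0589). DT651774 (A_92_P008921) had signals at 1.0 mm of 215.2, 102.0, 58.1 and 85.6 in *Mu killer* and 51.7, 56.6, 76.3 and 358.2 in *Mu* active. The lines overlapped and no sample was below the cutoff. At 2.0 mm it had 17.2, 12.2, 16.4 and 10.2 in *Mu killer* and 27.7, 22.3, 26.0 and 54.2 in *Mu* active, below the lowest 1.0 mm signal of the same line in all but 1 *Mu* active sample. TC310498 (A_92_P030526) had 22.0, 51.4, 50.1 and 34.3 at 1.0 mm in *Mu killer* and 15.4, 46.8, 35.8 and 57.0 in *Mu* active. At 2.0 mm it had 11.8, 9.45, 10.1 and 8.38 in *Mu killer* and 22.5, 15.98, 13.8 and 9.08 in *Mu* active. Without the 1 mm array of replicate 1 the ratio of DT651774 was -0.08.

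**Figure D4:**
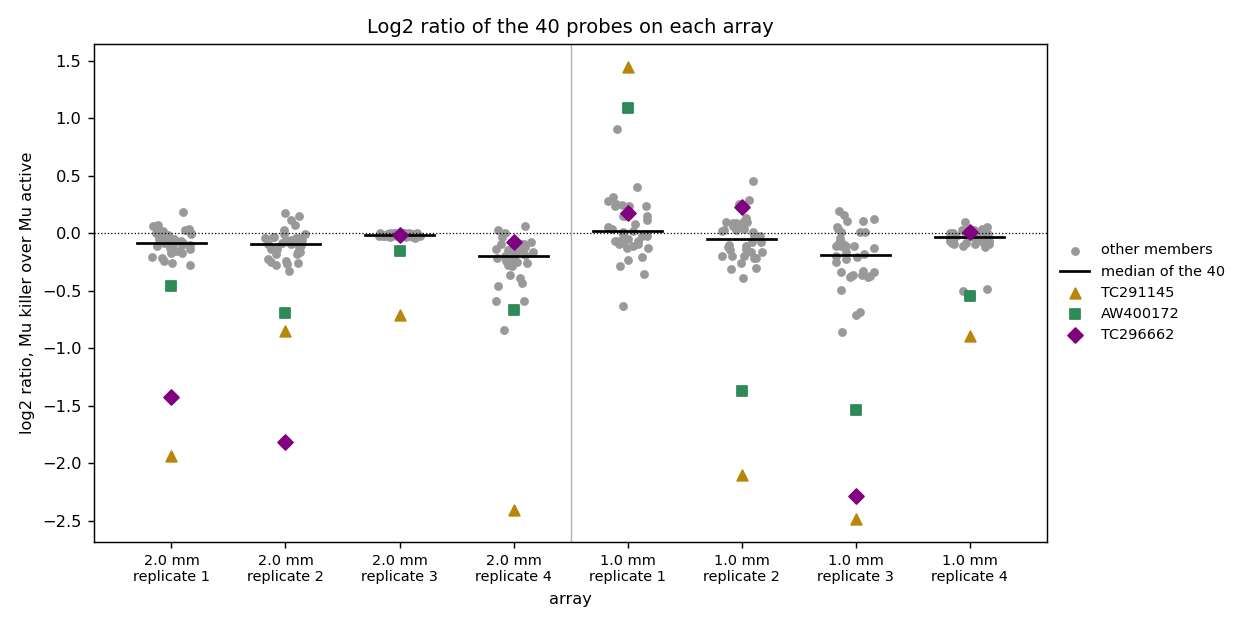
Log2 ratio, *Mu killer* over *Mu* active (vertical axis), of the 40 probes on each of the 8 arrays, with the 2.0 mm arrays left of the 1.0 mm arrays. Gray points are single probes, black lines their median, and TC291145, AW400172 and TC296662 are marked. On the 1 mm array of replicate 1 TC291145 is at 1.45 and AW400172 at 1.09, while both are below 0 on the other 7 arrays.

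None of the other members passed the test at 1.0 mm. The probe with the lowest unadjusted p, BG517724, had signals of 24.1, 19.8, 29.3 and 105.6 in *Mu killer* and 109.0, 47.6, 61.7 and 61.3 in *Mu* active, higher in *Mu killer* on the array of replicate 4 by signal. The fitted log2 ratio was -0.28 (SE 0.102, with an adjusted p of 0.852 in limma). TC314625, which was named after its values were seen, had 12.5, 14.2, 11.4 and 8.54 in *Mu killer* and 13.4, 40.5, 17.9 and 25.4 in *Mu* active, with a log2 ratio of -0.18. It was detected in *Mu killer* replicates 3 and 4 and in *Mu* active replicates 2 to 4. TC315136 stood out by its level in single samples, with 43.2, 142.1, 27.3 and 49.9 in *Mu killer* and 13.0, 67.4, 103.2 and 311.5 in *Mu* active, and was also chosen after its values were seen.

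The remaining named probes overlapped between the lines at 1.0 mm over all 4 replicates. TC304159 had 33.6, 60.0, 17.9 and 53.5 in *Mu killer* and 9.52, 35.8, 70.4 and 67.9 in *Mu* active. TC280678 had 50.6, 51.4, 16.9 and 48.6 in *Mu killer* and 14.2, 86.9, 97.1 and 55.9 in *Mu* active. Both were detected in 4 *Mu killer* samples and in 3 *Mu* active samples, with replicate 1 as the *Mu* active sample below the cutoff. DR805736 had 42.3, 27.2, 31.6 and 11.7 in *Mu killer* and 23.9, 53.8, 54.0 and 80.3 in *Mu* active. TC315536 had 26.7, 11.2, 33.5 and 16.9 in *Mu killer* and 24.4, 8.91, 35.2 and 65.1 in *Mu* active. The log2 ratios of these 4 probes lay between -0.15 and -0.045. TC298511 had 12.1, 11.4, 18.1 and 21.8 in *Mu killer* and 13.4, 29.2, 28.4 and 10.2 in *Mu* active, detected in 2 and 3 samples. TC281401 had 12.2, 11.6, 19.0 and 15.97 in *Mu killer* and 20.4, 8.56, 27.3 and 36.0 in *Mu* active, also detected in 2 and 3 samples. BQ163594 had 12.7, 14.1, 21.8 and 27.3 in *Mu killer* and 13.4, 10.2, 22.0 and 32.3 in *Mu* active, detected in replicates 3 and 4 of each line. CD961632 had 36.1, 11.7, 5.44 and 29.5 in *Mu killer* and 43.1, 14.5, 5.60 and 17.0 in *Mu* active, and MAGI4_128592 had 11.2, 12.7, 12.0 and 7.46 in *Mu killer* and 12.2, 9.93, 8.42 and 9.87 in *Mu* active. In both, the lines overlapped.

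The other 23 members were dim at both stages. They were CD966556, TC312096, CN845245, DR813178, CB278250, CO452770, TC302366, BM269231, BG841806, TC315157, TC293050, TC293949, CO451114, CD980796, CO441083, DT938973, CD958845, TC314751, TC304040, CO455441, TC284059, CV576026 and BE640058. No 2.0 mm signal of these probes in *Mu* active exceeded 58.5. At 1.0 mm their log2 ratios lay between -0.14, for TC302366, and -0.004, for CN845245, all below 0 in the fit with loess.

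Between the stages the 40 probes were lower at 2.0 mm than at 1.0 mm, in *Mu killer* and to a lesser count in *Mu* active. In *Mu killer*, the mean level of 39 of the 40 was lower at 2.0 mm, against 50.4% of all probes, and the median difference was -0.08 on the log2 scale, against -0.002 for all probes. In *Mu* active 31 of the 40 were lower at 2.0 mm, against 49.4% of all probes, with a median difference of -0.09 against 0.003. With an offset of 0 the medians were -0.36 in *Mu killer* and -0.20 in *Mu* active. All 4 signals at 2.0 mm lay below all 4 at 1.0 mm for 8 of the 40 in *Mu killer* and for 1, BE640058, in *Mu* active, against 8.03% and 4.47% of all probes. Without the 1 mm array of replicate 1, 36 of the 40 were lower at 2.0 mm in *Mu killer* (all probes 49.7%), with a median difference of -0.09 (all probes 0.002). In *Mu* active 34 were lower (all probes 48.9%), with a median of -0.11 (all probes 0.005). All signals at 2.0 mm then lay below the 3 left at 1.0 mm for 12 of the 40 in *Mu killer* (all probes 11.4%) and for 9 in *Mu* active (all probes 8.98%). At 1.0 mm the median of the probe means was 22.5 for *Mu killer* and 33.2 for *Mu* active samples, while all probes had 167.4 and 166.8. The 2.0 mm samples chose the probes, and each stage lay on its own slide, so no test was made. In whole anthers, fewer cells of a type and less RNA per cell cannot be told apart.

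The 40 probes were not spread evenly over the array. The array has 532 rows and 85 columns of spots, and 30 of the 40 lay in rows 267 and above, or 75.0%, against 50.1% of all maize probes. The first 18 columns held 18 of the 40, or 45.0%, against 20.8% of all. This boundary lies at the column of a member, CN845245, so it is not independent of the positions and the share is a description only. A further 669 probes were detected in at least 3 *Mu* active samples and at most 1 *Mu killer* sample at 2.0 mm, of which 48.9% lay in these rows and 23.5% in the first 18 columns. At 2.0 mm, the mark was set for 84.2% ± 2.81 of the probes in these rows in *Mu killer* and 87.6% ± 0.853 in *Mu* active (SD, n = 4). In rows 1 to 266 these shares were 80.9% ± 3.41 in *Mu killer* and 83.5% ± 1.12 in *Mu* active (SD, n = 4). In the first 18 columns they were 82.1% ± 3.28 in *Mu killer* and 86.2% ± 1.07 in *Mu* active. In the other columns they were 82.7% ± 3.0 and 85.4% ± 0.998 (SD, n = 4). The part of the spot position in the detection of the 40 probes was not tested. TC291145 lay in row 46 and column 46, outside both regions, and AW400172 in row 420 and column 8, inside both.

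**Figure D5:**
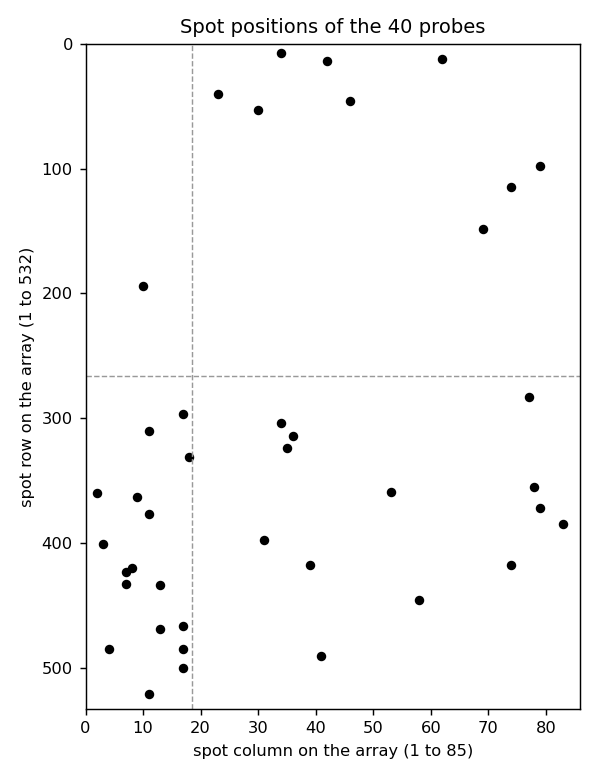
Spot positions of the 40 probes on the array, by column (horizontal axis) and row (vertical axis, row 1 at the top). Dashed lines separate the first 18 columns and the rows from 267 on, which hold 18 and 30 of the 40 probes.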

How the data were processed

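The authors labeled RNA of both lines with Cy3 and Cy5, hybridized 8 Agilent arrays and extracted the spots with Feature Extraction 9.5.3.1. The deposited scanner output holds, for each color, the mean intensity of a spot, its local background and the processed signal, an intensity after background subtraction and dye normalization, with the log10 of the Cy5 to Cy3 ratio. A second deposited table holds normalized intensities of each channel, on a linear scale, whose steps are not stated and whose columns followed the arrays in mirrored replicate order. It served as an alternative only.

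Detection followed the scanner mark for signals 2.6 SD above background. Control spots (1264 positive, 153 negative) were left out after background correction. The spot intensities underwent normexp background correction (offset 50) and loess, and the ratios were fitted in limma 3.58.1 (R 4.3.3) by stage and dye, with Benjamini-Hochberg adjustment over all 42034 probes. Spots marked as outliers, 3 to 13 per array, were left out of the fit, and none was a member. The fit was tested on simulated data. Both lines share an array, so the ratio within an array takes the array as a block. Across the stages, the deviations of arrays with the same number correlated at between -0.27 and 0.32, so the numbers did not pair the stages. The methods call the replicates biological, each a pool of anthers. Precision is limited by having 4 arrays per stage.

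Values in every sample are given for the 10 members with the lowest mean *Mu killer* level relative to *Mu* active at 2.0 mm (*Mu killer* levels raised to the cutoff where lower), the 3 largest and 3 smallest ratios at 1.0 mm, and the members closest to the cutoff. This rule, the members and the gene lists were chosen with earlier results of these data known. Alternatives covered the cutoff, background correction, normalization, deposited values, dye term, block, outlier spots and each array left out. Plots used Python 3.11.15 and matplotlib 3.10.9. Sequences of the probes were not used here.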

Additional observations from a re-analysis of the deposited data

Results flagged for a closer look

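Among 45 groups of 4 signals of the named probes with at least 1 detected sample, 5 held a sample far from the other 3 by Dixon's criterion on the log2 scale. The criterion marks about 1 in 20 groups of independent normal values. These groups share samples and hold stand-in values, so their number cannot be set against that rate. TC291145 at 2.0 mm had 272.0 in *Mu* active replicate 2, below 726.8 or more in the other 3. At 1.0 mm TC291145 had 12.6 and AW400172 had 13.6 in *Mu* active replicate 1, both on the array that stood apart, and both below the cutoff. TC296662 had 7.65 in *Mu* active replicate 4 at 1.0 mm, also below the cutoff. TC280678 had 16.9 in *Mu killer* replicate 3 at 1.0 mm, against 48.6 or more in the other 3. The causes were not tested.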

How the results depend on the processing

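The number of probes detected in *Mu* active alone at 2.0 mm was 59 when 5 SD above background were required, and only 5 of the 40 were among them. With a cutoff from the local background it was 0, and that cutoff passed between 99.37% and 99.99% of the probes in Cy3 and between 72.67% and 86.81% in Cy5. With the positive and significant mark it was 39. Leaving out each 2.0 mm array gave 87 to 172 probes, since fewer samples were needed. Leaving out each 1.0 mm array gave 6 to 16 members detected in more *Mu* active than *Mu killer* samples, against 18. It gave 25 to 35 members with a fitted ratio below 0, against 36, 0 to 10 without overlap of the lines, against 0, and 5 to 11 lower on every array left, against 3, with the highest of the last 2 ranges without replicate 1. These 3 counts were chosen after the data were seen. The last 2 rise with fewer arrays over all probes too. Without replicate 1 the share without overlap was 7.39% of all probes, against 0.795% with all 4 replicates. The share lower on every array left was 19.9%, against 6.73%. The shares without the other arrays are not given, so these ranges are descriptions only.

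At 1.0 mm the median log2 ratio of the members was 0.034 with median centering, which turned its direction, and -0.45 with ratios as the scanner software gives them. Without each 1.0 mm array it was between -0.078 and -0.035. At 2.0 mm it was 0.060 with median centering, -0.77 with the scanner log ratio and -0.37 with an offset of 0, and the median with *Mu killer* levels raised to the cutoff was then -0.35. The median difference between the stages with an offset of 0 was -0.36 for *Mu killer* and -0.20 for *Mu* active. In every alternative, 0 members passed the adjusted p in limma at 1.0 mm. Between 0 and 6 had an unadjusted p under 0.05, counts given without the share over all probes in the same fit. With the replicate number as a block, the paired fit gave a median of -0.063 and 0 calls, and the fit of single channels without the block gave the same. The deposited table held no 2.0 mm value of a member in both lines, so it gave no ratio there.

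Of 214 alternative values of the 15 named probes at 1.0 mm, 16 reversed the sign and 0 passed the adjusted threshold. Median centering turned TC304159 (0.025), TC298511 (0.027), TC281401 (0.091), TC315536 (0.066) and CD961632 (0.038). The scanner log ratio turned TC304159 (0.061), BQ163594 (-0.064) and CD961632 (0.058), and the deposited table TC298511 (0.017) and BQ163594 (-0.028). Without background subtraction DT651774 was -0.050. With each 1.0 mm array left out, TC296662 was between -0.77 and 0.28 and TC304159 between -0.114 and 0.090, with the sign turned without replicate 3. TC310498 was between -0.015 and 0.090, also turned without replicate 3. TC281401 was between -0.074 and 0.002 and DT651774 between -0.079 and 0.302, both turned without replicate 1.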
